A study of Mus musculus with 6 samples.

Results

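Tbx1, the gene of a T-box transcription factor, is described here across the cells of the pharyngeal region of the mouse embryo. It was found as the 1 of 32285 gene rows whose symbol is Tbx1 (ENSMUSG00000009097), and its unique molecular identifiers (UMIs, each marking 1 captured RNA molecule) were counted in every retained cell. Single-cell RNA was collected from the dissected cardiogenic region of wild-type C57BL/6 embryos at embryonic day E10.5. The labels name 3 samples from normal glycemic females pretreated with vehicle and 3 from hyperglycemic females pretreated with STZ (streptozotocin, a toxin of insulin-producing cells), all mated to normal glycemic males. The embryos of both groups were wild type, so the maternal treatment was the labelled difference. The counts form 1 matrix of 6 libraries, numbered 1 to 6 by barcode suffix. No file used here pairs a library with a sample, so STZ was not compared with vehicle and no test was run: each library's value is given as a description.

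Tbx1 is the best known gene of the chromosomal segment lost in DiGeorge syndrome, in which the thymus, parathyroids, outflow tract, arch arteries and face are malformed. In the embryo it is known to act in the pharyngeal endoderm that buds into pouches, in the overlying surface ectoderm, in the mesoderm core that forms branchiomeric (head and neck) muscle, and in the second heart field that builds the outflow tract. Neural crest cells, which fill the arches around that core, respond to signals from Tbx1-expressing tissues but make little Tbx1 themselves.

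The gene lies on the minus strand of chromosome 16 at 18580979 to 18590671 (9693 bases, GRCm38, the build that the submitters' processing notes call mm10, GENCODE M21 annotation). Its 5 annotated transcripts have 1 to 9 exons. No annotated gene overlaps it, and the nearest gene on its 3′ side, Gnb1l, ends 14299 bases away. RefSeq gives Tbx1 a pair of start sites, and the 250 bases upstream of each are shown because 3′ UMI counts cannot tell transcripts from the 2 starts apart: every level below is their sum. Capitals mark CG dinucleotides, and the sequences are RefSeq's, build GRCm38.p6, read 5′ to 3′ on the gene's strand. The outer window is chr16:18590672-18590921 and the inner one chr16:18588900-18589149.
Tbx1 outer start: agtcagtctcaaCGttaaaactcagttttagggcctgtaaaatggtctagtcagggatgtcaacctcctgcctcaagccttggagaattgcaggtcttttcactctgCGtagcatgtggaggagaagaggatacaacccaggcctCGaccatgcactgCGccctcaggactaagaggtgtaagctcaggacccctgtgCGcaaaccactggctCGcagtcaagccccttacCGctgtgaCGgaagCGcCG
Tbx1 inner start: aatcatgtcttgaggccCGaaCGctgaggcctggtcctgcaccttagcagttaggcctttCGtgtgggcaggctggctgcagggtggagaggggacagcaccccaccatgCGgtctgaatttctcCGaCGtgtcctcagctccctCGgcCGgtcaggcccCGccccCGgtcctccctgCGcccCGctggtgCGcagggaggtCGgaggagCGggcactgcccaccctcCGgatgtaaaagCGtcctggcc
The outer window holds 10 CG dinucleotides at 54.4% G and C, and the inner window 17 at 67.2%. Over 32851 such windows of all genes the median was 6, and 62.2% and 76.48% of them held fewer than the outer and the inner window. Neither window holds the T-box element AGGTGTGA or the forkhead element TGTTTAC on either strand. These elements occur in 1.12% and 3.166% of all windows.

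Of 53362 barcodes, 35962 had at least 2500 detected genes and at most 10% mitochondrial UMIs, between 4903 and 7136 per library. Their median depth was between 30533 and 35634 UMIs by library, and total depth between 195763232 and 245913073 UMIs. They held 36246 Tbx1 UMIs in 10116 cells, 28.13% of cells, with up to 42 in a cell. Per 1000000 UMIs (CPM) the whole matrix gave 27.65, and single libraries ranged from 18.01 in library 3 to 39.22 in library 4. Of the retained barcodes, 283 shared their barcode sequence with a retained barcode of another library. Doublets were not called by a separate method, and cells passing more than 1 gate were left out of every gate.

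Cells were placed in gates by marker genes, with a marker counted as detected at 1 UMI. Gates are ranges set by a minimum number of markers and not proven cell types. Epithelial cells had 2 of Epcam, Cdh1, Cldn6, Cldn7 and Esrp1. Endoderm then needed 2 of 8 markers (among them Foxa1, Foxa2, Shh, Pax1, Pax9, Nkx2-1, Nkx2-3) and ectoderm 2 of 7 (Tfap2a, Tfap2c, Trp63, Wnt6, Wnt3, Krt5, Dlx3), each with fewer than 2 of the other's. Outside the epithelium, muscle needed 3 of 6 (among them Msc, Tcf21, Lhx2, Myf5 and Myod1), splanchnic mesoderm 4 of 8 (Isl1, Fgf10, Mef2c, Hand2, Foxf1, Osr1, Tbx5, Gata6), paraxial mesoderm 3 of 6 (Meox1, Meox2, Tcf15, Uncx, Pax1, Pax3) and crest mesenchyme 3 of 7 (Dlx1, Dlx2, Dlx5, Dlx6, Tfap2a, Tfap2b, Barx1). Muscle cells also needed Msc, Myf5 or Myod1, and splanchnic cells Isl1, Foxf1 or Osr1. Tbx1 was no marker of any gate. A cell at exactly the minimum was common: 63.12% of muscle-gate cells, 51.84% of paraxial, 43.67% of splanchnic, 30.21% of endoderm, 23.29% of ectoderm and 20.45% of crest cells. The median cell of each gate held 3 to 5 of its own markers, and 2 splanchnic markers in the muscle gate, 2 crest markers in ectoderm and at most 1 marker of every other list counted. Of the check genes, the epithelial gene Krt8 stood at 333.2 CPM in endoderm and 426.1 in ectoderm but at 3.547 in muscle. Prrx1 and Twist1, mesenchymal transcription factors, were at 328.4 and 380.3 CPM in crest mesenchyme, and Twist1 at 305.3 in paraxial mesoderm. Of the 6 pharyngeal gates, Cldn4, Grhl3, Wnt2 and Foxc2 were highest in the gate they were chosen for. Others did not set their gate apart. Tlx1, chosen for splanchnic mesoderm, was at 38.69 CPM there and 103.6 in muscle. Ebf3, chosen for muscle, was at 71.94 there and 112.7 in crest mesenchyme. The crest genes Ednra and Alx1 were at 29.8 and 10.25 in crest mesenchyme but 36.6 and 35.48 in splanchnic mesoderm. Chrna1, of mature muscle, was at 0.1314 CPM in the muscle gate, and Myod1, the later myogenic factor, had a UMI in 6 of its thinned cells: the gate rests on early markers.

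Of the 6 pharyngeal gates, Tbx1 was highest in muscle, followed by endoderm, splanchnic mesoderm, paraxial mesoderm and ectoderm, and was lowest in crest mesenchyme. In the muscle gate the level was 162.5 CPM (95% exact Poisson interval 157.3 to 167.8; 781 cells), with 112.4 in the lowest library, a median of 173.1 and 205.8 in the highest. Endoderm held 54.08 CPM (52.59 to 55.61; 2963 cells), and its libraries lay between 47.98 and 62.11 with a median of 52.81. All 6 libraries had more Tbx1 in muscle than in endoderm, and these ranges do not overlap. These intervals, like all below, cover counting error only and not the spread between embryos.

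Splanchnic mesoderm, the gate that takes in second heart field cells, held 34.21 CPM (33.28 to 35.17; 4761 cells), with libraries from 25.99 through a median of 34.62 to 42.86. Each library had less Tbx1 there than in its endoderm, and 1.581 times separated the pooled values. Paraxial mesoderm, the source of somites and head mesenchyme, held 30.82 CPM (28.12 to 33.72; 490 cells). Its libraries were far apart, at 1.096 in library 1 (23 cells), 9.905 in library 3 (32 cells) and 31.42 to 41.18 in the other 4. Splanchnic and paraxial mesoderm do not differ beyond their spread: their ranges overlap and 4 of 6 libraries had the pooled order. With 1 marker fewer in each pharyngeal gate the paraxial level was 79.39 CPM, above splanchnic mesoderm at 43.59 and endoderm at 57.97.

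Surface ectoderm held 16.39 CPM (15.33 to 17.50; 2022 cells) with a lowest library of 13.09, a median of 17.29 and a highest of 18.05. It was below endoderm and splanchnic mesoderm in 6 of 6 libraries and below paraxial mesoderm in 4 of 6. Crest mesenchyme, the most numerous gate with 5365 cells, held 1.780 CPM (1.603 to 1.970), between 0.6603 and 2.845 by library. Muscle exceeded it 91.29-fold, endoderm 30.38-fold, splanchnic mesoderm 19.22-fold and ectoderm 9.208-fold, each in all 6 libraries. With cells passing more than 1 gate given to the best one, crest mesenchyme held 2.707 CPM and muscle 134.7, and each of these folds is smaller. Erythroid cells, which should lack the gene, gave a background of 0.5224 CPM (0.3852 to 0.6926) between 0.1556 and 1.008, and cardiomyocytes 0.7148 CPM. By CPM, crest mesenchyme was above erythroid cells in each library, but its lowest library lies inside the erythroid range.

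**Figure D1:**
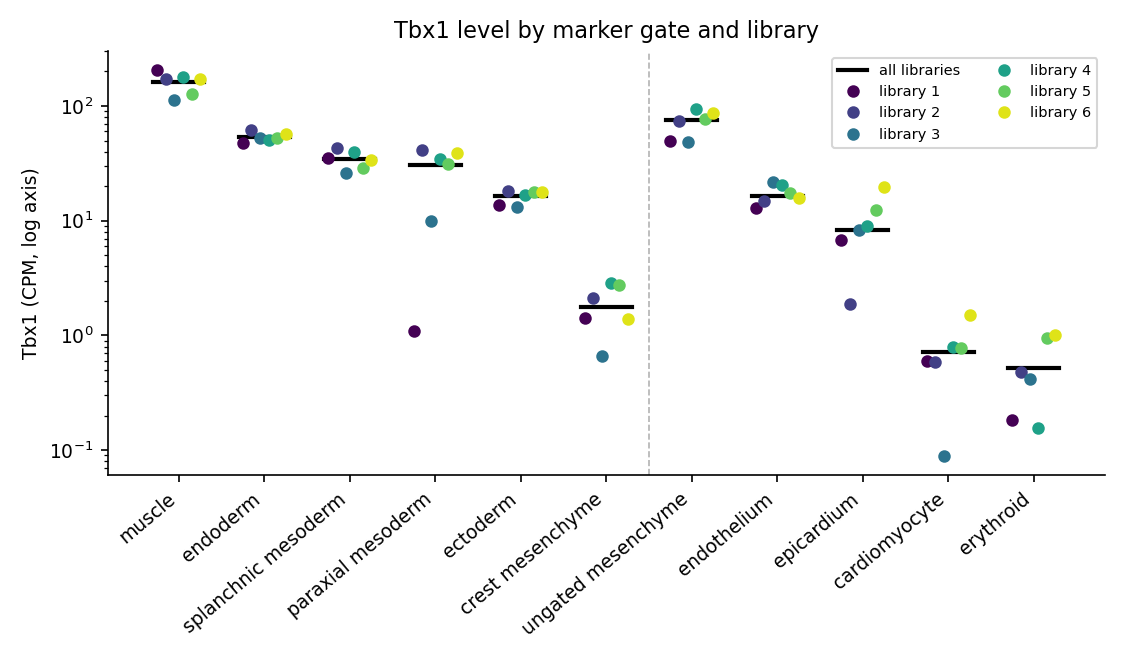
Tbx1 level in CPM (log axis) for 6 pharyngeal gates, left of the dashed line, and 5 further groups; points are the 6 libraries and bars the pooled cells. Muscle lies highest at 162.5 CPM, crest mesenchyme at 1.780 CPM near erythroid cells at 0.5224 CPM, and the paraxial gate spreads from 1.096 to 41.18 CPM.

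The share of cells with a Tbx1 UMI gave the same order. To hold depth equal, each cell was thinned to 10000 UMIs, which left out the 1009 shallower cells. A Tbx1 UMI was then found in 59.06% of muscle-gate cells (exact binomial interval 55.49 to 62.57), 28.57% of endoderm (26.93 to 30.26), 20.52% of splanchnic mesoderm (19.38 to 21.70) and 17.60% of paraxial mesoderm (14.31 to 21.29). Ectoderm gave 11.85% (10.44 to 13.37) and crest mesenchyme 1.374% (1.077 to 1.728), against 0.5751% (0.2486 to 1.130) in erythroid cells. Unthinned, these shares were 73.75% in muscle, 46.51%, 34.89% and 30.61% in endoderm, splanchnic and paraxial mesoderm, 23.64% in ectoderm, 3.765% in crest mesenchyme and 2.513% in erythroid cells. In library 3 crest mesenchyme was below erythroid cells by both shares. Its share was 0.3559% against 0.7042% thinned, and 1.033% against 2.347% unthinned. Median depths were 39064 UMIs in crest cells and 63880 in erythroid cells, above the 24754.5 to 29846 of the other 5 pharyngeal gates. The unthinned crest share is therefore seen at greater depth than the share of the Tbx1-rich gates.

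Tbx1 was uneven within each gate. Above 10 UMIs stood 12.42% of muscle-gate cells, 3.004% of endoderm, 1.113% of splanchnic mesoderm and 0.1978% of ectoderm. In crest mesenchyme 5163 of 5365 cells had none and 140 had 1, while 11 had 6 to 10 and 1 had more. Levels changed toward the edge of a gate: crest cells with exactly 3 crest markers held 3.570 CPM and those with more held 1.458. Endoderm at its minimum of 2 markers held 79.42 CPM and above it 44.62. The muscle gate ran the other way, at 120.7 CPM with 3 markers and 220.5 CPM with more.

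**Figure D2:**
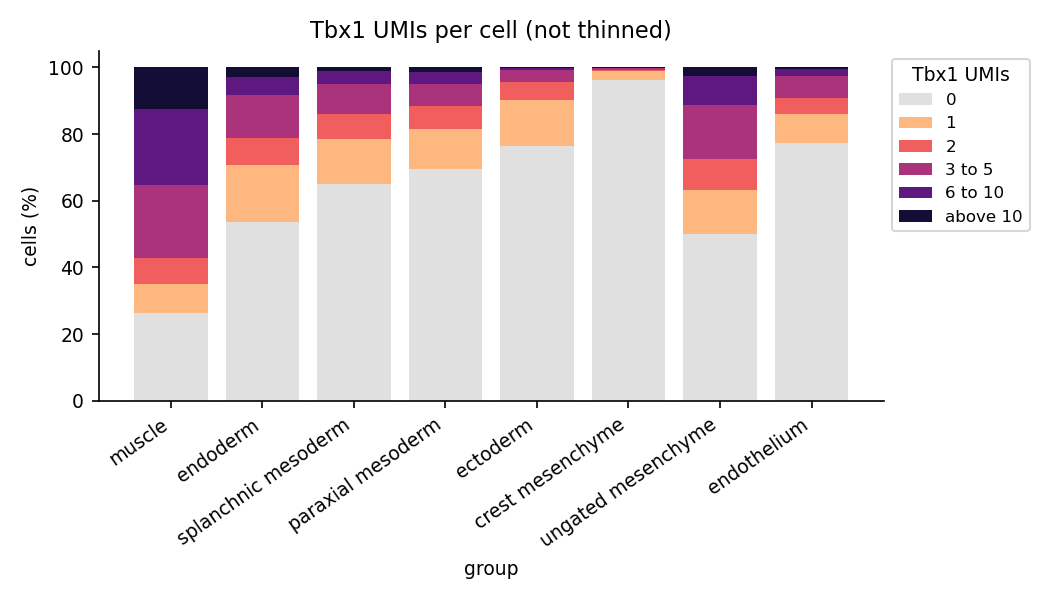
Share of cells (%) by number of Tbx1 UMIs, unthinned, in 6 pharyngeal gates, ungated mesenchyme and endothelium. In the muscle gate 26.25% of cells have none and 12.42% have more than 10, whereas 96.23% of crest mesenchyme cells have none.

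In endoderm, Tbx1 was higher in cells with Pax9 and lower in cells with Nkx2-1, Shh or Foxa2. Cells with a UMI of Pax9, a transcription factor of the pharyngeal pouches, held 90.29 CPM of Tbx1 and cells without it 23.76, a ratio of 3.80 (3.386 to 4.271) that was above 1 in 6 of 6 libraries (2.976 to 4.599). Pax1, its close relative in the same pouches, made little difference at 58.25 against 47.25 CPM. Cells with Nkx2-1, the factor of thyroid and lung buds, held 8.909 CPM against 59.05, a 6.628-fold lower level seen in 6 of 6 libraries. Shh, the hedgehog ligand of the ventral foregut, went with 24.98 against 65.19 CPM, and Foxa2, a forkhead factor of the whole foregut, with 29.67 against 58.40, each lower in 6 of 6 libraries. All 5 are endoderm markers of which a cell needed 2, so a cell without one holds others. Among genes the gate did not use, Hoxa3, a Hox gene of the posterior arches, went with 90.39 against 44.87 CPM. Fgf8, a growth factor secreted by pharyngeal epithelia, went with 84.32 against 43.41 CPM, again in 6 of 6 libraries.

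Genes were then compared within endoderm between 826 cells with a Tbx1 UMI and 2065 without, all thinned to 10000 UMIs, whose median full depths were 31570 and 27887. At full depth 1585 endoderm cells had no Tbx1 UMI, so some of the 2065 held the gene. The same is true of the cells without Tbx1 in each comparison below. A gene was called higher at a 2-fold ratio, or lower at the inverse, when each library used agreed in direction. Of 8993 genes with at least 10 CPM, 27 were called higher (0.300%) and 56 lower (0.623%). Requiring 2 Tbx1 UMIs gave 52 higher and 146 lower, with 27 and 51 of the original genes among them. With 1 marker more per gate, 27 were lower, 22 of them among the 56. Pax9 led by correlation, with 155.0 CPM in cells with Tbx1 and 62.23 without (median r over libraries 0.3590, over cells; these describe cells of shared libraries). In single libraries Pax9 ran from 127.2 to 179.2 CPM with Tbx1 and from 50.93 to 90.57 without, so the ranges do not overlap. Aldh1a1, an enzyme that makes retinoic acid, was at 84.62 against 12.40 CPM, a ratio of 6.826. Its levels differed widely between libraries, from 27.52 to 207.7 CPM with Tbx1 and from 2.059 to 40.94 without, and the ranges overlap although each library kept the direction. Its paralog Aldh1a7 was at 32.69 against 7.748 CPM, and reads could be shared between these closely similar genes. Hoxb1 (48.43 against 14.92 CPM), Prrx2 (126.5 against 53.66), Prdm1, a transcriptional repressor (77.24 against 27.31), the GDNF receptor gene Gfra1 (31.96 against 6.441), Plxna4, a semaphorin receptor (45.04 against 13.80), Hs3st6 (24.82 against 7.264) and the noncoding RNA Halr1 of the Hoxa cluster (68.64 against 16.22) completed the leading 10.

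The genes lower in Tbx1-containing endoderm were led by Ctnnd2, Mecom, Gria3, Shh and Nkx2-1. Nkx2-1 stood at 11.14 CPM with Tbx1 and 74.48 without, between 0.000 and 21.54 against 38.49 and 98.80 in single libraries, with no overlap. Shh stood at 42.86 against 93.90 CPM, from 31.19 to 52.63 with Tbx1 and from 81.48 to 107.0 without. Mecom, a zinc-finger factor, was at 148.5 against 333.9 CPM and the catenin gene Ctnnd2 at 130.4 against 261.7. Pax9, Shh and Nkx2-1 had also divided the same thinned cells above, so their calls restate those splits and are no separate evidence.

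In ectoderm the same comparison (229 cells with Tbx1, 1704 without; median depths 25780 and 25267.5) called 23 of 9068 genes higher (0.254%) and 38 lower (0.419%). Without library 2, 35 genes were called higher, and 23 of those were the original ones. With cells thinned to 5000 UMIs, which left 3 libraries, 6 of the 23 higher and 10 of the 38 lower genes were called again. With 1 marker more per gate, which left 5 libraries, 19 were higher and 64 lower, with 9 and 26 of the original genes among them. Tshz2, a zinc-finger gene, was at 321.0 CPM with Tbx1 and 157.6 without, from 244.1 to 444.0 and from 140.3 to 189.7 in single libraries, which do not overlap. Daam2, an actin regulator in Wnt signalling, was at 98.69 against 40.61 CPM, the proteoglycan gene Lum at 69.87 against 23.59 and Irx1, an Iroquois factor, at 68.12 against 26.70. Nkx2-6, a homeobox gene of pharyngeal epithelium, was at 63.32 against 26.58 CPM. Cyp26b1, an enzyme that degrades retinoic acid, was at 36.24 against 10.21 CPM, the Wnt agonist Rspo2 at 25.33 against 8.744 and Angpt1, an angiopoietin, at 62.88 against 31.28. Proser2 and 2010300C02Rik were the other two of the leading 10. Library values with and without Tbx1 overlapped for Daam2 (52.94 to 117.3 against 29.55 to 58.68), Cyp26b1 (12.00 to 51.35 against 4.698 to 16.38) and Rspo2 (7.692 to 40.54 against 3.306 to 14.33). Lower genes were led by Perp, a desmosome gene of stratified epithelia, at 51.53 against 108.2 CPM. Krt19, a keratin (33.62 against 85.97), Tfap2b (52.40 against 120.2, with overlapping libraries), Galnt18 (51.97 against 120.7) and S100a6 (11.35 against 29.40) followed. Divided by single markers, Tbx1 was at 23.83 CPM in ectoderm cells with Fgf8 and 11.34 without, higher in 6 of 6 libraries. With Trp63, the basal epidermal factor and a marker of the gate, it was 12.09 against 18.65 CPM, lower in 5 of 6. Foxi3 was found in 18 thinned ectoderm cells and gave no library value.

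**Figure D3:**
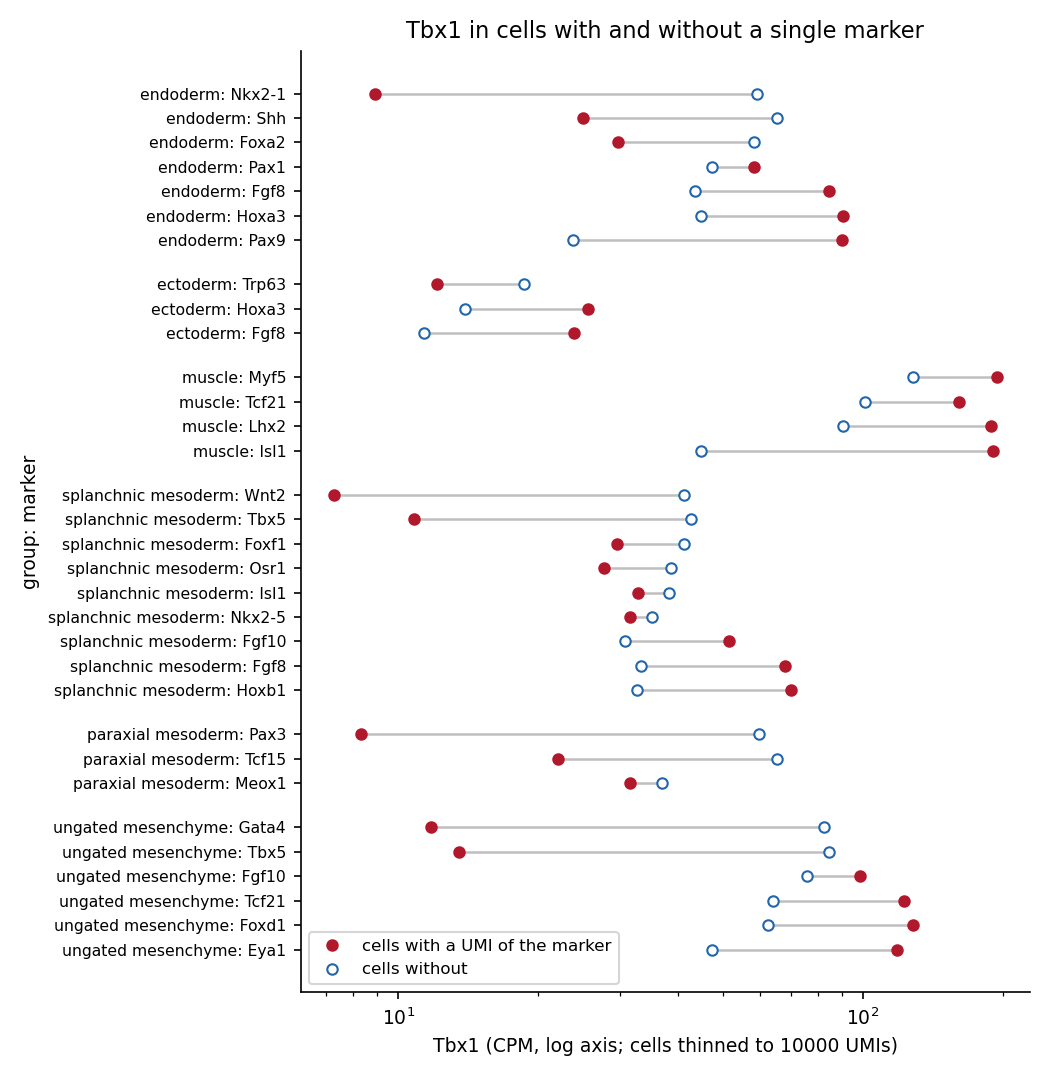
Tbx1 level in CPM (log axis, cells thinned to 10000 UMIs) in cells with (filled) and without (open) a UMI of 1 marker, in endoderm, ectoderm, muscle, splanchnic and paraxial mesoderm and ungated mesenchyme; markers with values in at least 2 libraries are drawn, and endothelium is not. The largest ratios drawn are at Nkx2-1 in endoderm (8.909 against 59.05 CPM), Pax3 in paraxial mesoderm (8.333 against 59.74) and Gata4 in ungated mesenchyme (11.76 against 82.55).

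In the muscle gate, Tbx1 was higher in the pooled cells with Isl1, Lhx2 or Myf5. It was lower in cells with Osr1 in libraries 2 to 6. The share of cells with Osr1 differed between libraries. Tbx1 was at 190.2 CPM in cells with Isl1, a factor of cardiopharyngeal progenitors, and at 44.87 without it, and at 188.9 against 90.45 CPM by Lhx2, a LIM-homeobox factor of branchiomeric muscle. Lhx2 and Myf5 are markers of the gate. Isl1 and Osr1 are not, but like Tbx5 and Fgf10 they are markers of the splanchnic gate. The 355 cells passing the muscle and splanchnic gates together, at 34.46 CPM, were left out of this one. How leaving them out shaped the differences by these genes was not tested. The Isl1 and Lhx2 splits were above 1 in 4 libraries, of 5 and 6 with enough cells. Their library ratios ran from 0.8942 to 15.38 and from 0.9984 to 5.178. Myf5, an early myogenic factor, went with 193.8 against 128.1 CPM, higher in 6 of 6 libraries by ratios from 1.001 to 2.562. These splits were not repeated among cells without Osr1. The 453 cells with a Tbx1 UMI and 314 without (median depths 29161 and 26219) differed in 76 of 8735 genes called higher (0.870%) and 59 lower (0.675%). At full depth 205 muscle-gate cells had no Tbx1 UMI, so some of the 314 held the gene. Gng11, a G-protein subunit gene, was at 271.7 against 107.0 CPM, Eya4, a Six-family cofactor, at 387.0 against 172.9 and the calcium channel gene Itpr1 at 219.6 against 98.73. Col25a1, a transmembrane collagen gene with a known role in motor innervation of muscle, was at 405.7 against 171.0 CPM. Ntng1, Cadm1, Nr5a2, Cpne4, Celf2 and Vsnl1 made up the rest of the leading 10, with ratios from 2.073 to 2.989. These pooled ratios did not hold evenly over libraries. In library 1, Eya4 stood at 425.0 CPM with Tbx1 and 417.1 without, Col25a1 at 416.7 against 402.9 and Cadm1 at 395.0 against 365.7. In library 2, Gng11 stood at 271.2 against 234.5 CPM. Over libraries, the values with and without Tbx1 overlapped for each of the leading 10 except Itpr1.

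The genes lower in Tbx1-containing muscle-gate cells differed by far larger ratios. Osr1, a zinc-finger factor of lateral and intermediate mesoderm, was at 5.519 against 165.9 CPM, a 30.07-fold difference. Itga8, an integrin gene (4.194 against 113.1 CPM), Sparcl1 (4.415 against 107.6), the protease gene Adamts20 (8.168 against 122.3) and Gm49708 (49.45 against 368.8) followed. By library, Osr1 in cells without Tbx1 was 2.857 CPM in library 1 and 10.34 in library 2 but 159.6 to 286.3 in the other 4. In library 1, Osr1 and Itga8 each stood at 0.8333 CPM with Tbx1 against 2.857 without, and Sparcl1 at 0 against 2.857. These values rest on very few UMIs, so the direction of these genes in library 1 carries little weight. Leaving out library 1 raised the calls to 123 higher and 130 lower, and leaving out library 2 to 130 and 113. Tbx5, the T-box factor of atria, sinus and forelimb, stood at 0.6623 CPM with Tbx1 and 60.51 without. It was not called because 4 of 6 libraries were lower and none higher.

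Osr1 was therefore used, after its values were seen, to divide the gate. Of 781 muscle-gate cells 194 (24.84%) had an Osr1 UMI: 2.516% in library 1, 5.825% in library 2, and 24% to 48.05% in libraries 3 to 6. The cells with Osr1 held 23.70 CPM of Tbx1, and 16.49% had a Tbx1 UMI at full depth. The cells without Osr1 held 202.8 CPM (196.2 to 209.6), and 92.67% had a Tbx1 UMI, between 89.29% and 96.84% by library. Their level was 150.6 CPM in library 3, 179.3 in library 2 and 205.6 to 250.7 in the other 4. In libraries 3 to 6 the Osr1 cells were at 11.96 to 36.26 CPM, but the 6 such cells of library 2 were at 68.89 CPM, 66.67% of them with a Tbx1 UMI, and the 4 of library 1 at 215.0. Among cells without Osr1, where 4 libraries had enough cells, 68 genes were called higher and 10 lower, and these shared 10 and 2 genes with the calls of the whole gate. The number of genes tested there was not recorded, so no share of all genes stands beside these counts. Fewer cells without Tbx1 were left, and agreement was needed in 4 libraries rather than 6. The comparison split cells after thinning, while 92.67% of cells without Osr1 had a Tbx1 UMI at full depth. Many cells counted there as without Tbx1 therefore held it, so these calls do not set expression against absence. A gene not called again is therefore not shown to have lost its difference. With cells thinned to 5000 UMIs, 6 of the 76 higher and 10 of the 59 lower genes were called again. None of the 10 leading genes named above was among those shared with the cells lacking Osr1, which were Rpp38, Zfp385b, Slc35c2, Sgk1, Tmcc3, Pcdh9, Kat2b, Trpm6, Frat1 and Rtl4 on the higher side and Ttl and Nrp1 on the lower.

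**Figure D4:**
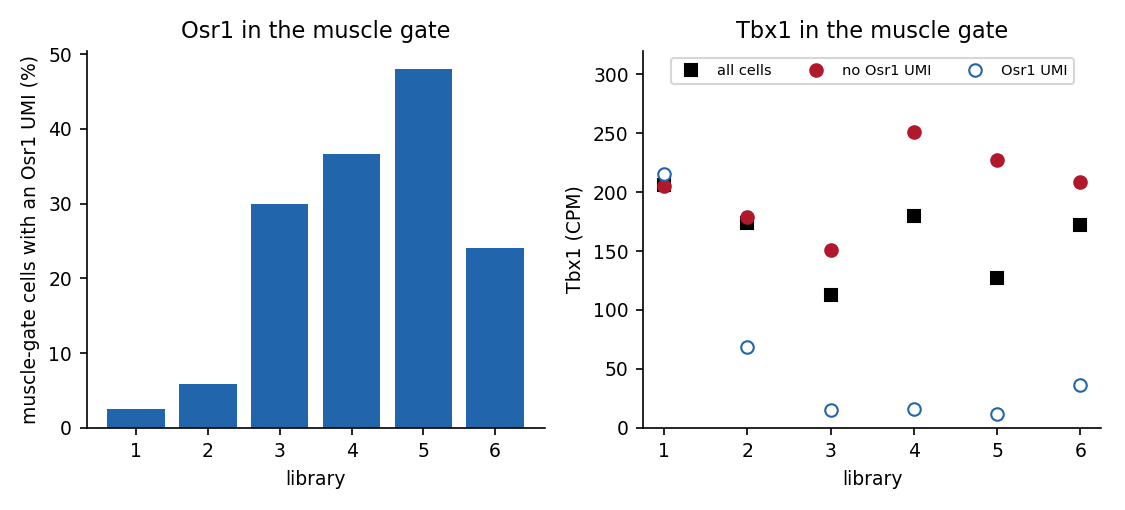
Left, share (%) of muscle-gate cells with an Osr1 UMI in each of 6 libraries; right, Tbx1 level (CPM) in all muscle-gate cells, those without and those with Osr1. Libraries 1 and 2 have Osr1 in 2.516% and 5.825% of cells, and cells without Osr1 lie between 150.6 and 250.7 CPM.

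In splanchnic mesoderm, Tbx1 was higher in cells with Fgf10, Fgf8 or Hoxb1 and lower in cells with Tbx5 or Wnt2. Tbx1 stood at 51.51 CPM with Fgf10, the growth factor of the anterior second heart field, and 30.78 without (6 of 6 libraries). With Fgf8 it was 67.89 against 33.33 CPM, and with Hoxb1, a Hox gene of posterior heart field progenitors, 70.11 against 32.56, higher in each of the 5 and 4 libraries with enough cells. Cells with Tbx5 held 10.79 CPM against 42.69, 3.956-fold lower, and cells with Wnt2, a ligand of the posterior second heart field and lung mesoderm, 7.271 against 41.15, 5.659-fold lower, each in 6 of 6 libraries. Isl1 (32.84 against 38.17 CPM) and Nkx2-5 (31.58 against 35.15) divided the cells little, with 2 libraries higher and 4 lower for both. Fgf10, Tbx5 and Isl1 are markers of the splanchnic gate, and Fgf8, Hoxb1, Wnt2 and Nkx2-5 are not.

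Within that gate, 967 cells with Tbx1 and 3745 without (median depths 30457 and 29472) gave 44 of 8915 genes called higher (0.494%) and 80 lower (0.897%). Eya1, a Six-family cofactor, led with 146.1 CPM against 36.93, from 91.67 to 183.2 with Tbx1 and from 32.47 to 48.93 without by library, with no overlap. Col26a1 (147.5 against 63.42 CPM), Arg1, the urea-cycle enzyme gene (121.1 against 37.89), Cped1 (119.5 against 45.90) and Gm266 (109.4 against 42.19) were also higher. The calcium channel subunit gene Cacna2d3 (85.21 against 18.05), Prdm16 (50.67 against 17.49) and Gng11 (175.5 against 75.43) were among the leading 10 as well. Gata4, a cardiac zinc-finger factor, was at 9.824 against 90.60 CPM, between 2.424 and 19.23 with Tbx1 and between 61.54 and 115.5 without. Its cofactor gene Zfpm2 was at 52.02 against 275.2 CPM, Tbx5 at 13.34 against 63.68, Wnt2 at 10.65 against 67.77 and the calcium release channel Ryr2 at 24.72 against 103.1. The ranges of Gata4 in cells with and without Tbx1 do not overlap between libraries, and Tbx5 ranged from 7.487 to 24.49 against 27.57 to 85.91. Tbx5 and Wnt2 had also divided the same thinned cells above, so their calls are no separate evidence.

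**Figure D5:**
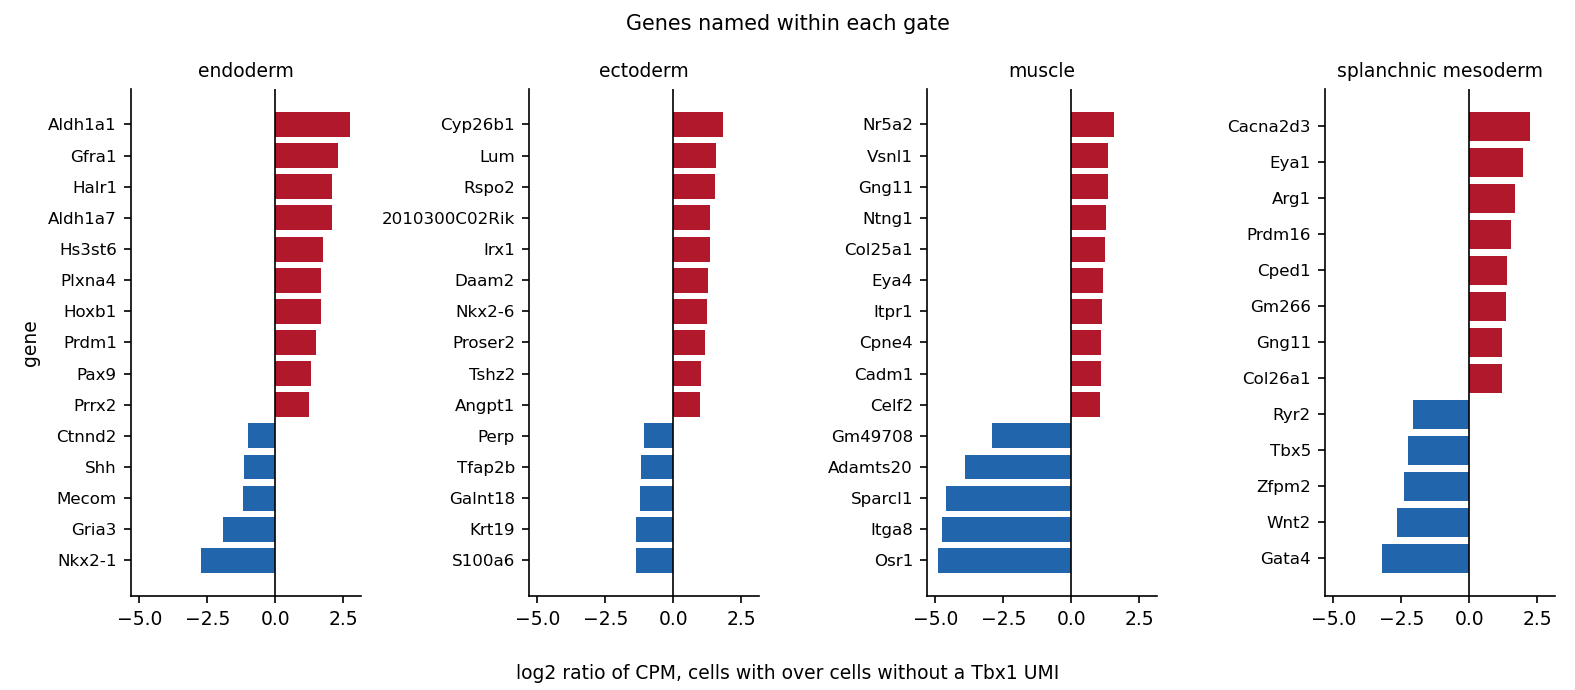
Log2 ratio of CPM in cells with a Tbx1 UMI over cells without, for leading genes called higher or lower in 4 gates; bars right of 0 are higher with Tbx1 and bars left of 0 lower. Aldh1a1 leads endoderm at 84.62 against 12.40 CPM, of the genes drawn Osr1 is lowest in muscle at 5.519 against 165.9, and Gata4 is lowest in splanchnic mesoderm at 9.824 against 90.60.

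The paraxial gate had enough cells for this comparison in 1 library and crest mesenchyme in 0, so neither was given calls. Pax3 and Tcf15 are markers of the paraxial gate. Within it, Tbx1 stood at 8.333 CPM in cells with Pax3, a factor of dermomyotome, and 59.74 without, lower in each of 4 libraries. Tcf15, a somite factor, went with 22.10 against 65.29 CPM, but the 2 libraries with enough cells differed in direction. With Foxc2, a forkhead factor of head and arch mesoderm, Tbx1 was at 86.15 CPM in 65 cells and 24.64 in 418, seen in 1 library. In crest mesenchyme, cells with Dlx5, a factor of the ventral arches, held 0.9073 CPM against 2.696 without. The first value lies inside the erythroid range of 0.1556 to 1.008. Dlx5 is a marker of the gate, and cells at the gate's minimum of markers held more Tbx1, as given above.

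The calls were then set side by side over endoderm, ectoderm, muscle and splanchnic mesoderm, as a description with no test of the overlap. Of genes called higher, 140 were called in 1 gate, 13 in 2 gates and 1 in 4 gates. That 1 gene was Col25a1, at 86.92 against 33.95 CPM in endoderm, 80.79 against 32.69 in ectoderm, 405.7 against 171.0 in muscle and 47.57 against 19.52 in splanchnic mesoderm. Its muscle call was not kept among cells without Osr1. Of genes called lower, 206 were called in 1 gate, 12 in 2 and 1 in 3. The last was Chrm3, a muscarinic receptor gene, at 8.475 against 21.07 CPM in endoderm, 2.620 against 18.25 in ectoderm and 8.583 against 32.82 in splanchnic mesoderm. Few UMIs stand behind its ectoderm value in the 229 cells with Tbx1, so agreement over libraries there carries little weight.

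Genes known to act with or downstream of Tbx1 in the pharynx were read from a list of 48, all in the files. This list and those that follow were chosen with earlier results of these data known. Their rates beside those of all genes are therefore a description only. In endoderm 4 of 26 with enough counts were called higher (Pax9, Hoxb1, Ripply3 and Fgf8) and Shh lower, where 0.300% and 0.623% of all genes were called. Pax9 and Shh are endoderm markers too, and both, like Fgf8, had divided the same cells above. The list had a median ratio of 1.072 against 0.9963 over all genes tested. Ripply3, a T-box co-repressor of the posterior pouches, stood at 90.07 against 36.80 CPM and Fgf8 at 79.42 against 38.84. In ectoderm Nkx2-6 alone of 25 was called, higher (0.254% of all genes), at a list median of 1.353 against 0.9976, and Fgf8, at 255.5 against 129.6 CPM, had a ratio of 1.971. In muscle 4 of 26 were called higher (0.870% of all genes) and 2 lower (0.675%). The higher ones were Etv4 (37.97 against 10.51 CPM), Fgf10 (114.8 against 43.31), Dusp6 (93.82 against 36.31) and Lhx2 (214.8 against 85.35). Of the lower ones, the semaphorin Sema3c stood at 13.69 against 34.71 CPM, and the list median was 1.653 against 1.015. None of these 6 muscle calls was kept among cells without Osr1, and Lhx2 had also divided the whole gate above. In splanchnic mesoderm Eya1, Six2 (52.43 against 14.63 CPM), Wnt5a, a noncanonical Wnt ligand (98.35 against 46.84), and Sema3c (103.9 against 51.30) were higher (0.494% of all genes) and 2 genes lower, Gata4 among them (0.897%), of 25, with a list median of 1.185 against 0.9873. In endothelium 3 of 18 were called higher (Flt4, Dusp6 and Mef2c, where 1.18% of all genes were). Another 4 were lower (Hand2, Nrg1, Gata4 and Wnt5a, where 3.80% of all genes were). The list median there, 0.8830, lay below the 0.9926 of all genes, with no test of the difference. Flt4 also divides the same endothelial cells below, so its call is no separate evidence.

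Of 18 genes of retinoic acid synthesis, transport, response and breakdown, 1 was called in endoderm (Aldh1a1, of 10 tested), 1 in ectoderm (Cyp26b1, of 9), 1 in splanchnic mesoderm (Rdh10, the retinol dehydrogenase, at 54.71 against 19.36 CPM, of 9) and 0 of 10 in muscle, all higher with Tbx1. In endothelium 1 of 7 was called, Cyp26b1, which was lower with Tbx1 there at 2.051 CPM (4 UMIs) against 13.28, where 3.80% of all genes were called lower. Of all genes, 0.300% were called higher in endoderm, 0.254% in ectoderm, 0.494% in splanchnic mesoderm and 0.870% in muscle. The list's median ratios were 1.099 in endoderm, 1.142 in ectoderm, 1.268 in splanchnic mesoderm and 0.8477 in muscle, against 0.9963, 0.9976, 0.9873 and 1.015 over all genes. Of 33 mouse counterparts of genes in the human DiGeorge segment, 0 of the 22 or 23 with enough counts were called in either direction in endoderm, ectoderm, muscle and splanchnic mesoderm. With a threshold of 2-fold and no test, this says only that none reached it. In endothelium 1 of 24 was called, Cldn5, higher with Tbx1 (1.18% of all genes). Cldn5 also divides the same endothelial cells below, so this call is no separate evidence. The list's median ratios were 0.9777 in endoderm, 0.9444 in ectoderm, 0.9786 in muscle and 1.008 in splanchnic mesoderm. Crkl, an adaptor of growth factor signalling near Tbx1 in that segment, stood at 24.33 against 25.18 CPM in endoderm and 28.44 against 29.69 in splanchnic mesoderm.

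Few other T-box genes had enough counts: 2 were tested in endoderm, 2 in ectoderm, 3 in muscle and 7 in splanchnic mesoderm, and 0 were called higher, where 0.254% to 0.870% of all genes were. Tbx3 was lower in Tbx1-containing endoderm (14.65 against 33.61 CPM), and Tbx5, Tbx4 (5.171 against 18.77) and Tbx20 (38.26 against 92.10) were lower in splanchnic mesoderm. That is 1 of 2 tested and 3 of 7 tested, where 0.623% and 0.897% of all genes were called lower, and Tbx5 is a marker of the splanchnic gate. The gates where these genes are highest also differ: of the 6 pharyngeal gates, Tbx2 peaked in crest mesenchyme (45.21 CPM), Tbx3 in paraxial mesoderm (37.28), and Tbx4, Tbx5 and Tbx20 in splanchnic mesoderm. These gene levels are per 1000000 UMIs from 3′ ends and are compared between gates, not between genes.

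A large part of all Tbx1 UMIs lay in cells that passed no gate. These were grouped after their level had been seen, into 6865 nonepithelial cells called ungated mesenchyme and 2 epithelial groups of 727 cells each. The ungated mesenchyme held 75.54 CPM (74.26 to 76.83), with libraries from 48.76 through a median of 76.08 to 94.24, and with 36.66% of the Tbx1 UMIs in 19.09% of the retained cells. Its level was above endoderm in the pooled cells and below muscle in 6 of 6 libraries. It was graded by the markers a cell held short of a gate. Cells with 0, 1 and 2 crest markers held 89.36, 41.02 and 10.16 CPM, and cells with 0, 1 and 2 paraxial markers 53.38, 104.0 and 119.9 CPM. Cells with 0, 1 and 2 muscle markers held 61.65, 89.99 and 105.6 CPM. By splanchnic markers, cells with 0 to 4 held 88.93, 99.64, 90.32, 57.82 and 28.28 CPM. The level was thus lower with more crest markers, higher with more paraxial or muscle markers, and highest at 1 splanchnic marker. The epithelial groups, with markers of both epithelia or too few of either, held 40.06 and 60.77 CPM.

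Within ungated mesenchyme 2426 cells with Tbx1 and 4017 without (median depths 25817.5 and 26112) gave 85 of 8705 genes higher (0.976%) and 72 lower (0.827%). Ebf1, a helix-loop-helix factor, stood at 362.9 against 104.3 CPM, from 155.4 to 504.3 with Tbx1 and from 56.48 to 149.8 without by library. Eya1 (233.6 against 72.99 CPM), Gm266 (141.8 against 44.64), Cped1 (219.7 against 82.87), Col26a1 (255.1 against 124.3), Gng11 (181.6 against 75.40) and Ntng1 (161.6 against 44.78) were among the leading 10 here and also called higher in splanchnic mesoderm. Sobp, Pgf and Pcp4 completed them. Of the Tbx1-linked genes 6 were called higher and 2 lower of 27. Six2 (48.39 against 14.64 CPM), Tcf21, a factor of branchiomeric muscle and epicardium (79.02 against 29.10), Spry1, an FGF feedback inhibitor (32.40 against 15.58), Sema3c and Eya1 were among the higher ones, and Hand2 and Gata4 were the lower ones. Hand2, a factor of ventral crest and heart field, stood at 25.06 against 85.49 CPM, and Mab21l2 (5.194 against 52.05), Bambi (53.59 against 141.5), Hand2os1 (19.50 against 74.04) and Msx1 (20.90 against 72.72) were the other lower genes named. Divided by these same genes, chosen after their values were seen and so no separate evidence, Tbx1 was at 118.4 CPM in ungated cells with Eya1 and 47.27 without, and at 11.76 against 82.55 by Gata4, each the same way in 6 of 6 libraries.

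Endothelial cells, gated by 4 of 7 vascular markers, held Tbx1 at 16.31 CPM (15.39 to 17.27; 1775 cells), from 12.81 through a median of 16.69 to 21.82 by library, close to the ectoderm level. The gene was concentrated in part of the gate. Cells with Cldn5, a tight-junction gene of vessels that lies in the mouse counterpart of the DiGeorge segment, held 40.79 CPM and cells without it 4.211, a ratio of 9.686 seen in the same direction in 6 of 6 libraries. Nrp2, a receptor of lymphatic and venous endothelium, went with 43.27 against 8.353 CPM, Aplnr, the apelin receptor of veins and sprouting vessels, with 37.25 against 13.19, and Flt4, the receptor of lymphatic growth factors, with 31.33 against 12.58. Nfatc1, a factor of endocardium, went with 6.902 against 24.13 CPM. These splits were chosen after values were seen.

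Of 8526 genes in endothelium, 101 were called higher in the 195 cells with Tbx1 than in the 1551 without (1.18%) and 324 lower (3.80%). Cldn5 stood at 503.1 against 118.2 CPM, from 407.4 to 623.8 with Tbx1 and from 53.68 to 193.4 without by library, with no overlap. Cldn5 had also divided the same thinned cells above, so its call restates that split and is no separate evidence. Tmem255a (122.1 against 19.47 CPM), Lmo2, a factor of blood and vessel formation (354.9 against 116.7), and Gng11 (748.7 against 315.5) were also higher. Lower genes included Fn1, fibronectin (189.7 against 809.4 CPM), the cell-cycle inhibitor Cdkn1c (630.3 against 5165), and the cardiac factors Tbx20 (27.69 against 272.8), Gata4 (23.59 against 187.7) and Hand2 (9.231 against 97.03). The gate holds endocardium and vessels together, and their proportions in cells with and without Tbx1 were not tested.

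Across the 13 gates, the genes whose level most resembled that of Tbx1 were led by Adcy2, an adenylate cyclase gene (Pearson r 0.9205 of log2(CPM + 1) over 13 gates, out of 11626 genes compared). Lurap1l (0.9067), the neuregulin gene Nrg1 (0.8924), Gm266 (0.8894), Pak7 (0.8837), 2610307P16Rik (0.8810), Hoxa5 (0.8803), Camk2n1 (0.8774), Gm49267 (0.8766) and Fam126b (0.8763) followed. The gates share libraries and depth, so these values describe 13 points. Adcy2 was at 19.09 CPM in muscle, 8.204 in endoderm and 1.568 in crest mesenchyme, and Nrg1 at 259.0, 77.48 and 7.941. Gm266 was the only one of the 10 that was also among the leading genes within splanchnic mesoderm and ungated mesenchyme.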

How the data were processed

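Single-cell 3′ RNA libraries of 6 samples were deposited by the authors as 1 matrix of whole UMI counts per gene and barcode. The submitters' processing notes name CASAVA 1.8, Cell Ranger 5.0.0, Seurat 4 and the build mm10. Label descriptions name a chromatin assay, while titles, kit and library source name RNA; the counts were treated as RNA. No column of another series was used.

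From these counts, Python 3.11.15, NumPy 2.4.6, SciPy 1.17.1 and pandas 2.3.3 were used to retain barcodes (at least 2500 genes, at most 10% mitochondrial UMIs), gate them by markers, sum CPM, thin cells to 10000 UMIs and compare cells with and without Tbx1 in every library holding at least 20 of each. Calls needed 10 CPM and 2-fold. The calling step was also run on cells simulated from the pooled endoderm profile, with changes larger than the threshold. Those cells lack differences between libraries and cell types, so that run was not used to judge the calls here. Genes named were the 10 called higher and 5 called lower with the strongest median r per gate, plus genes of 4 lists. Members, gates and lists were chosen with earlier results of these data known. The ungated groups, the gene comparison within endothelium and the Osr1 division were added after values were seen. Exact 95% Poisson and binomial intervals cover counting error only. In the pooled ratios used for calls, a count of 0 was set to 3. Whether the samples are separate litters is not stated. Some named genes and gate markers are not reported here.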

Additional observations from a re-analysis of the deposited data

How the results depend on the processing

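No paired analysis was possible because no file pairs the libraries with the labelled samples, so the replicate numbers could not be attached to columns; the comparison of STZ with vehicle and its alternatives were not run. The division by Osr1 was chosen after seeing the data. The cause of each change was not tested, unless fewer genes or fewer libraries follow from the setting itself.

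Of 5 neighbouring pairs in the order of gates, all 5 kept their order, except that 4 did with 1 marker fewer per gate and with each cell weighted equally. A looser filter (1000 genes, 20% mitochondrial UMIs), a stricter one (4000 genes), and leaving out barcodes found in several libraries or cells above 2 times the median UMIs left the levels and shares of the 6 pharyngeal gates within their counting intervals. Removing hemoglobin and mitochondrial UMIs from the total did so for their levels.

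With 1 marker fewer, Tbx1 was at 57.97 CPM in endoderm, 184.9 in muscle, 43.59 in splanchnic and 79.39 in paraxial mesoderm, and its thinned share was 68.84%, 24.85% and 37.23% in the last 3. With 1 marker more, levels were 44.62 in endoderm, 14.15 in ectoderm, 211.4 in muscle, 29.74 in splanchnic mesoderm, 25.12 in paraxial mesoderm and 2.048 CPM in crest, and shares 25.92% in endoderm, 9.808% in ectoderm, 73.62% in muscle and 18.08% in splanchnic mesoderm. Giving cells of several gates to the best one gave 50.75, 22.01, 134.7, 32.28 and 2.707 CPM in endoderm, ectoderm, muscle, splanchnic mesoderm and crest, and shares of 13.69%, 51.32% and 1.837% in ectoderm, muscle and crest. Weighting cells equally gave 49.71, 14.95, 152.9 and 34.05 CPM in endoderm, ectoderm, muscle and paraxial mesoderm, weighting libraries equally 26.28 in paraxial mesoderm, and muscle cells without Osr1 202.8. Shares at 5000 UMIs were 18.16%, 6.528%, 43.41%, 12.85%, 12.24% and 0.9133% in endoderm, ectoderm, muscle, splanchnic, paraxial and crest cells, and unthinned 46.51%, 23.64%, 73.75%, 34.89%, 30.61% and 3.765%.

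Leaving out 1 library at a time moved levels to 151.7 to 172.0 CPM in muscle, 32.60 to 35.79 in splanchnic mesoderm, 1.622 to 1.993 in crest, 52.75 to 55.02 in endoderm, 15.95 to 16.92 in ectoderm and 28.87 to 32.92 in paraxial mesoderm. Shares ran from 54.41% to 62.60% in muscle and 19.45% to 21.78% in splanchnic mesoderm. Counts called ran from 21 to 35 higher and 40 to 55 lower in ectoderm, 27 to 31 and 51 to 69 in endoderm, 55 to 130 and 55 to 130 in muscle, and 39 to 49 and 70 to 92 in splanchnic mesoderm.

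At 1.5-fold, genes called higher and lower were 75 and 135 in endoderm, 104 and 127 in ectoderm, 171 and 109 in muscle and 108 and 166 in splanchnic mesoderm. At 5 CPM they were 47 and 97 in endoderm, 42 and 65 in ectoderm, and 67 higher in splanchnic mesoderm. At 25 CPM they were 13 and 19, 8 and 13, 45 and 34, and 22 and 43 in endoderm, ectoderm, muscle and splanchnic mesoderm. Requiring 2 Tbx1 UMIs gave 52 and 146 in endoderm and 123 lower in splanchnic mesoderm, and no value in ectoderm for want of cells. Thinning to 5000 UMIs gave 79 and 308 in ectoderm, from 3 libraries, and 30 and 42 in muscle. Of the genes called at 10000 UMIs, 6 of 23 higher and 10 of 38 lower were called again in ectoderm, 6 of 76 and 10 of 59 in muscle, 20 of 27 and 32 of 56 in endoderm, and 29 of 44 and 58 of 80 in splanchnic mesoderm. With 1 marker more, 27 were lower in endoderm and 64 in ectoderm, and muscle gave no value for want of cells. Without Osr1 cells, 10 were lower in muscle.

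The paraxial and crest gates, with 85 and 72 thinned cells holding Tbx1, had too few of them per library for calls. A Tbx1 share near the erythroid one cannot be told from free RNA.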

Other observations

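Epicardium gave 8.321 CPM, from 1.879 in library 2 to 19.78 in library 6, and crest glia 7.954. The neuron gate, of 221 cells, gave 41.93 CPM, where Twist1, a mesenchymal factor, also stood at 94.52 CPM; the part of mesenchymal cells in that value was not tested. The 355 cells passing the muscle and splanchnic gates together held 34.46 CPM, and 458 passing the splanchnic and epicardium gates 36.54.

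In the 250-base windows upstream of gene starts, the T-box element AGGTGTGA occurred in 1 of 21 windows of genes called higher in endoderm (Aldh1a1) in 1 of 60 of genes called lower in endoderm (Prlr) and in 1 of 99 of genes called higher in muscle (Sgk1), against 1.12% of all windows. It occurred in 0 windows of the genes called lower in muscle and of those called in either direction in ectoderm and splanchnic mesoderm. These are counts of letters and say nothing of binding.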
